A study of Mus musculus with 6 samples.

Results

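The genes of bile acid synthesis and transport were followed through a comparison of mouse livers with and without Pak4 in hepatocytes. They were the 10 named genes Cyp7a1, Cyp8b1, Cyp27a1, Cyp7b1, Akr1d1, Baat, Slc10a1, Abcb11, Nr1h4 and Nr0b2, taken by gene symbol from a table of 45777 genes. All 10 were found once, and all 10 passed the filter on low counts that left 16197 genes for testing. The Pak4_KO group held 3 liver libraries from mice with floxed Pak4 on both alleles and an Alb-Cre transgene, in which the albumin promoter drives Cre recombinase, an enzyme that cuts out floxed sequence, in hepatocytes. The WT group held 3 liver libraries from mice with floxed Pak4 on both alleles and no Cre in the label. All mice were C57BL/6 and 10 weeks old. The WT livers therefore carry the floxed allele but are not labelled as carrying Alb-Cre, and any effect of the transgene itself cannot be told apart from the loss of Pak4. Whole liver was sequenced, so endothelial, Kupffer and other cells that the albumin promoter does not target contributed RNA. The labels do not say that each library came from a separate animal, and p-values reflect only how these libraries vary.

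Bile acids are made from cholesterol in hepatocytes. In the classic pathway Cyp7a1 takes the rate-limiting step and Cyp8b1 decides whether cholic acid is formed, whereas in the alternative pathway Cyp27a1 oxidises the side chain first and Cyp7b1 follows. The products are conjugated by Baat, exported into bile by Abcb11 and taken up again from blood by Slc10a1. The nuclear receptor Nr1h4, known as FXR, binds bile acids and induces Nr0b2, known as SHP, and Abcb11, and SHP together with the FGF15 signal through Fgfr4 and Klb restrains Cyp7a1 and Cyp8b1.

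None of the 10 genes was called in Pak4_KO livers by edgeR's quasi-likelihood test at an adjusted p under 0.05, where 0.469% of all tested genes were called. The members were 1 higher and 9 lower in Pak4_KO by the sign of the log2 fold change, with a median of -0.27, against a median of 0.00 over all tested genes, of which 50.7% were positive. At an unadjusted p under 0.05 stood 2 of the 10, Cyp7b1 and Akr1d1, where 8.21% of all tested genes stood. The DESeq2 Wald test called 1 member, Cyp7b1, with 2.06% of all tested genes called, and limma-voom called 0, with 0.42% called. The 3 Pak4_KO libraries lay entirely above WT for 1 member, Cyp8b1, and entirely below WT for 1 member, Cyp7b1, where 13.4% of all tested genes showed no overlap in either direction. With 10 members, these shares rest on very few genes.

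Promoter sequence is shown for 3 members that the named regulators are known to act on, Abcb11 and Nr0b2 as targets of the receptors in the feedback loop and Cyp8b1 as the member that was higher in every Pak4_KO library. Each is the stretch of 250 bases before the annotated start of the gene in RefSeq, build GRCm38.p6, read on the gene's own strand, 5′ to 3′. None of these windows overlapped a gene of the GENCODE M21 annotation. Capitals mark the matches to 4 motifs that were searched on both strands in the same window of all 32851 promoters of the RefSeq table. The table held 8 promoters of 7 members. Cyp7a1, Cyp7b1 and Baat had no entry.
Abcb11, chr2:69342617-69342866, minus strand: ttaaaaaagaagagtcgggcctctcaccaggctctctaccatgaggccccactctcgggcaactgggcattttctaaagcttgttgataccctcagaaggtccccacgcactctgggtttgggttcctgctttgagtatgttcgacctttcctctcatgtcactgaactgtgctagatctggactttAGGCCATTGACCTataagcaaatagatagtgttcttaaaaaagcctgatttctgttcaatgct
Nr0b2, chr4:133553126-133553375, plus strand: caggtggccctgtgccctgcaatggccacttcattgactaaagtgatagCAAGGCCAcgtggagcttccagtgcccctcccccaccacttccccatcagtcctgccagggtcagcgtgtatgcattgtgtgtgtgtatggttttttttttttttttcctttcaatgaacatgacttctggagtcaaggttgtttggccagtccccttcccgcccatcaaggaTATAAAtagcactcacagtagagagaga
Cyp8b1, chr9:121916306-121916555, minus strand: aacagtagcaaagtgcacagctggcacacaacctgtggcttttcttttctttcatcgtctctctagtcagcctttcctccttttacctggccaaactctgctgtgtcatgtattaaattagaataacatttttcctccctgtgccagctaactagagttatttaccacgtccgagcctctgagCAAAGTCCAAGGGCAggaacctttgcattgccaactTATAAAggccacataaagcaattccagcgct
The Abcb11 window held, from 63 to 51 bases before the start, AGGNCA, any base and TGACCT in a row, the inverted repeat that is the form of site that FXR is known to bind with its partner RXR. Of the 8 member promoters it was the only one with this match, and 0.0335% of all promoters (11 of 32851) held the motif. The Nr0b2 and Cyp8b1 windows held CAAGGNCA, a site known for NR5A receptors such as Nr5a2, which 5.53% of all promoters held. In Cyp8b1 that match, 60 to 53 bases before the start, overlapped by its first bases with CAAAGTCCA, a site known for Hnf4a, at 67 to 59 bases, a motif held by 0.384% of all promoters. The TATAAA motif, held by 12.4% of all promoters, lay 28 bases before the start in Nr0b2 and 31 bases before it in Cyp8b1. These matches describe the letters of the windows, and binding was not measured.

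The libraries held 42632491, 48044181 and 46413020 reads in Pak4_KO and 39603272, 48089296 and 52521400 reads in WT. Pak4 itself had 1.37, 2.24 and 1.90 CPM (counts scaled to the library total with TMM factors) in Pak4_KO and 5.93, 7.15 and 6.44 CPM in WT, and fell in Pak4_KO (log2 fold change -1.82, SE 0.24, edgeR adjusted p = 0.0169). The call was lost without WT replicate 1, WT replicate 2 or Pak4_KO replicate 3 (adjusted p up to 0.0936), with log2 fold changes of -1.89, -1.75 and -1.85, and the counts do not separate the deleted part of the gene. Hepatocyte markers were all detected (8 of 8), summing to between 62828 and 65832 TPM (transcript shares scaled per length) in Pak4_KO and between 51629 and 63750 TPM in WT. Of 5 exocrine pancreas markers, 5 were at 0 in every library. Summed marker levels did not overlap for 4 lists. Cholangiocyte markers (8 of 8 detected) summed to between 78.6 and 119 TPM in Pak4_KO and between 60.9 and 70.6 TPM in WT. This list includes the bile acid transporter Slc10a2, at 32.6, 37.6 and 35.3 TPM in Pak4_KO and 16.3, 30.4 and 27.2 TPM in WT. Without Slc10a2 the cholangiocyte sums of the groups overlap. Neutrophil markers (6 of 6) summed to between 59.1 and 68.6 TPM in Pak4_KO and between 83.9 and 145 TPM in WT. Lymphocyte markers (6 of 6) summed to between 19.1 and 27.8 TPM in Pak4_KO and between 8.71 and 10.3 TPM in WT. Only 3 of these lymphocyte genes had enough reads to be tested, and 1 was higher and 2 lower in Pak4_KO, so the sum does not describe the whole list. Adipose markers (2 of 4, with Adipoq and Lep at 0) summed to between 0.41 and 5.51 TPM in Pak4_KO and between 0.00 and 0.147 TPM in WT. Summed levels overlapped for the endothelial, Kupffer cell, stellate cell, erythroid, gut epithelium and smooth muscle lists. No marker gene was called, fewer cells of a type and less RNA per cell cannot be told apart, and the part of these differences in the members' values was not tested.

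The order of the members by level was the same in both groups at its top and bottom and differed for Cyp7b1. Compared per length as TPM, the mean levels in Pak4_KO livers ran from 445 TPM for Cyp27a1 through Cyp8b1, Baat, Abcb11, Slc10a1, Nr1h4, Cyp7b1, Akr1d1 and Cyp7a1 to 0.879 TPM for Nr0b2. In WT livers they ran from 461 TPM for Cyp27a1 through Cyp7b1, Baat, Abcb11, Cyp8b1, Slc10a1, Nr1h4, Akr1d1 and Cyp7a1 to 1.46 TPM for Nr0b2. Cyp7b1 was thus at rank 7 in Pak4_KO livers and at rank 2 in WT livers, and Cyp8b1 at rank 2 in Pak4_KO livers and rank 5 in WT livers. Of the 9 pairs of neighbours in each order, 4 had library ranges that did not overlap in Pak4_KO livers and 3 in WT livers, so most neighbours did not differ beyond their spread. Cyp27a1 stood clear of its neighbour in both groups, and Akr1d1 stood clear of Cyp7a1 in both.

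**Figure D1:**
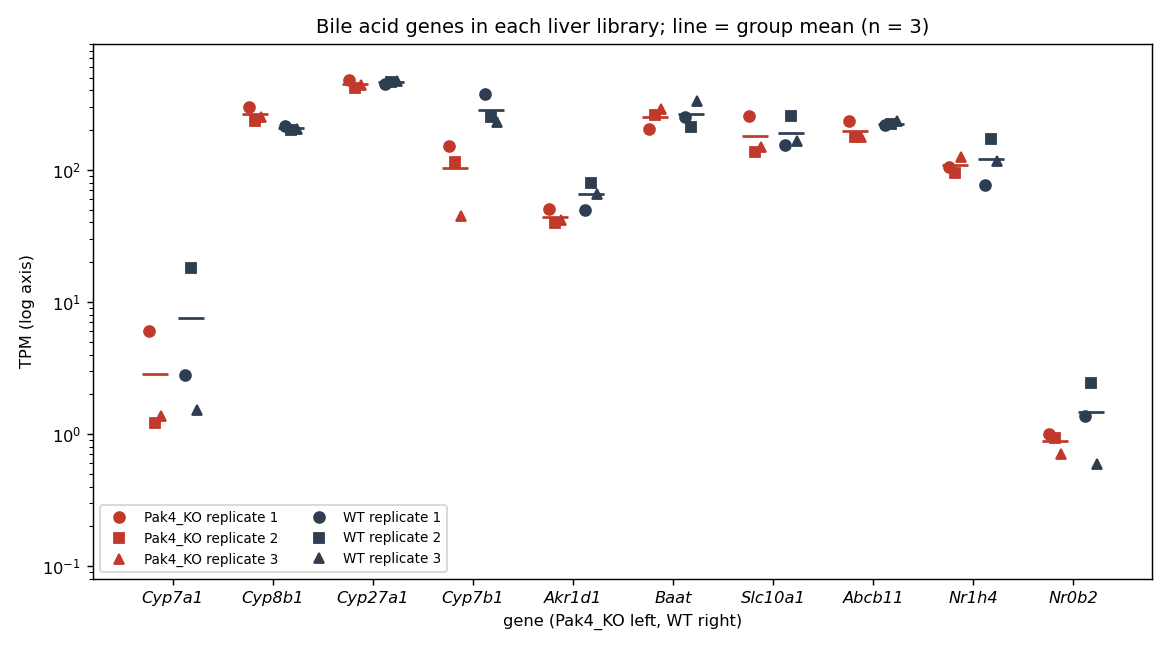
TPM of the 10 bile acid genes on a log axis, with each point a library (marker shape gives the replicate number), each line a group mean of 3, and Pak4_KO to the left of WT for every gene. Cyp7b1 lies between 45.0 and 152 TPM in the Pak4_KO libraries and between 230 and 376 TPM in the WT libraries, while Cyp7a1 spreads from 1.21 to 6.01 TPM in Pak4_KO and from 1.52 to 18.2 TPM in WT.

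Cyp7a1 (NCBI gene 13122, chromosome 4, 6265612 to 6275632, GRCm38), the rate-limiting cholesterol hydroxylase of the classic pathway, varied more between libraries of one genotype than between genotypes. The Pak4_KO libraries had 617, 145 and 155 reads, or 14.6, 3.07 and 3.10 CPM. The WT libraries had 273, 2245 and 198 reads, or 6.89, 47.2 and 3.94 CPM. Replicate 2 of WT was 6.86 and 12 times the other WT libraries, and replicate 1 of Pak4_KO was 4.74 and 4.69 times the other Pak4_KO libraries, so the groups overlapped widely. The log2 fold change was -1.49 (SE 0.95, 95% interval -3.67 to 0.69, edgeR adjusted p = 0.763), and it turned to 0.35 without WT replicate 2. The spread of log2 CPM within WT exceeded that of 99.9% of tested genes, and that within Pak4_KO exceeded 99.7%.

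Cyp7a1 mRNA is known to vary over the day under clock output factors such as Dbp. Dbp was at 5.5, 2.1 and 3.02 CPM in Pak4_KO and at 4.67, 10.0 and 3.40 CPM in WT, so its highest library of each genotype was the same one as for Cyp7a1. That held for 2 of the 16 listed clock genes, Dbp and Cry2, and for 18.7% of all tested genes. The core clock gene Arntl was at 6.65, 12.9 and 8.24 CPM in Pak4_KO and at 10.3, 15.1 and 9.40 CPM in WT. Per1, another core clock gene, was nearly level, at 29.9, 30.8 and 31.2 CPM in Pak4_KO and at 30.6, 36.3 and 26.8 CPM in WT. None of the 16 listed clock genes was called (median log2 fold change -0.24), and the labels used here give no time of day or feeding state, so the part of either in the Cyp7a1 values was not tested.

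Cyp8b1 (NCBI gene 13124, chromosome 9, 121914356 to 121916305), the sterol hydroxylase that directs synthesis to cholic acid, had all its Pak4_KO libraries above all its WT libraries, by a small amount. The Pak4_KO libraries had 341.5, 279 and 265 CPM and the WT libraries 245, 244 and 248 CPM. The WT values were among the tightest in the table, with only 0.377% of tested genes showing a smaller spread in WT, while 44.5% showed a smaller spread in Pak4_KO. The log2 fold change was 0.27 (SE 0.14, 95% interval -0.05 to 0.58, edgeR adjusted p = 0.686), and it did not pass the test. It stood at 0.15 without Pak4_KO replicate 1.

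Cyp7b1 (NCBI gene 13123, chromosome 3, 18071944 to 18243890), the oxysterol hydroxylase of the alternative pathway and a gene known to be more expressed in male than in female mouse liver, had the smallest p of the members. The labels used here do not give the sex of the mice, so its part in the Cyp7b1 values was not tested. The Pak4_KO libraries had 8144, 7065 and 2640 reads, or 192, 149.5 and 52.8 CPM. The WT libraries had 19030, 16144 and 15536 reads, or 480, 340 and 309 CPM. All Pak4_KO libraries were below all WT libraries, and Pak4_KO replicate 3 was far below the other Pak4_KO libraries, in a spread wider than that of 99.4% of tested genes. Cyp7b1 averaged 132 ± 71.4 CPM in Pak4_KO and 376 ± 91.3 CPM in WT (SD, n = 3 each), a log2 fold change of -1.52 (SE 0.41, 95% interval -2.47 to -0.57, edgeR adjusted p = 0.275). Over all tested genes 2.14% had a smaller p. The DESeq2 Wald test gave the same log2 fold change with an adjusted p of 0.00462, and no other alternative called the gene, with adjusted p-values from 0.0767 to 0.646. Without Pak4_KO replicate 3 the log2 fold change was -1.14. That library also had the highest summed gut epithelium markers (1756 TPM, against 426 and 761 TPM in the other Pak4_KO libraries). Its summed cholangiocyte (119 TPM), endothelial (159 TPM), stellate cell (185 TPM) and lymphocyte (27.8 TPM) markers were the highest of all libraries. Its neutrophil (59.1 TPM) and smooth muscle and gallbladder (2.39 TPM) sums were the lowest of all libraries. The part of these lists in the Cyp7b1 values was not tested. The gut epithelium list, which includes Apoa4, also summed to between 562 and 713 TPM in WT. Of its 4 tested genes, 2 were higher and 2 lower in Pak4_KO by the fit over all libraries. Which genes raised the sum in Pak4_KO replicate 3, and whether it reflects gut tissue, was not tested.

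Cyp27a1 (NCBI gene 104086, chromosome 1, 74713148 to 74737897), the mitochondrial sterol hydroxylase that opens the alternative pathway, was close to level. It had 542, 494 and 468 CPM in Pak4_KO and 517, 563 and 574 CPM in WT, with overlap between the groups. The log2 fold change was -0.14 (SE 0.13, 95% interval -0.43 to 0.16, edgeR adjusted p = 0.874). Cyp7b1, which acts after it, thus stood 2.86-fold lower in Pak4_KO by the fitted estimate, and Cyp27a1 1.10-fold lower, although neither passed the test and the difference between these genes was not tested.

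Akr1d1 (NCBI gene 208665, chromosome 6, 37529978 to 37574921), the reductase that saturates the steroid ring in both pathways, had the second smallest p of the members. It had 79.3, 65.0 and 61.2 CPM in Pak4_KO and 78.9, 133 and 110.5 CPM in WT. Only Pak4_KO replicate 1 reached the range of WT, where it lay just above WT replicate 1. The log2 fold change was -0.65 (SE 0.20, 95% interval -1.11 to -0.19, edgeR adjusted p = 0.365), and 3.04% of tested genes had a smaller p. Baat (NCBI gene 12012, chromosome 4, 49489416 to 49507915), which joins bile acids to taurine or glycine, had 233, 312 and 312 CPM in Pak4_KO and 290, 261 and 404 CPM in WT. Its groups overlapped, with a log2 fold change of -0.16 (SE 0.20, 95% interval -0.61 to 0.30, edgeR adjusted p = 0.923) that turned to 0.05 without WT replicate 3. In the GENCODE M21 annotation a processed pseudogene overlaps Akr1d1 and a small nuclear RNA gene overlaps Cyp7b1, each on the same strand, so reads could be shared.

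The transporters among the members, Slc10a1 and Abcb11, overlapped between the groups. Slc10a1 (NCBI gene 20493, chromosome 12, 80953185 to 80968705), the sodium-dependent uptake carrier NTCP of the blood-facing membrane, had 257.5, 142 and 138 CPM in Pak4_KO and 157, 277 and 179 CPM in WT. The highest library of each genotype was the one that was also highest for Cyp7a1, and the log2 fold change was -0.19 (SE 0.29, 95% interval -0.86 to 0.48, edgeR adjusted p = 0.938), or 0.09 without WT replicate 2. Abcb11 (NCBI gene 27413, chromosome 2, 69238282 to 69342616), the bile salt export pump BSEP whose promoter is shown above, had 666, 531 and 474 CPM in Pak4_KO and 625, 674 and 714 CPM in WT. Pak4_KO replicate 1 lay inside the WT range and the other Pak4_KO libraries below it, with a log2 fold change of -0.27 (SE 0.16, 95% interval -0.64 to 0.10, edgeR adjusted p = 0.74). The annotation places an antisense gene and a pseudogene on the other strand within Abcb11, and the strand setting of the counting is not given in the sources used here, so their reads cannot be told apart from those of Abcb11.

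The receptors of the feedback loop also overlapped between the groups, and Nr0b2 was counted with few reads. Nr1h4 (NCBI gene 20186, chromosome 10, 89454234 to 89533645), the bile acid receptor FXR, had 119, 109 and 136 CPM in Pak4_KO and 88.2, 210 and 142 CPM in WT. The Pak4_KO values lay within the WT range, with a log2 fold change of -0.27 (SE 0.28, 95% interval -0.91 to 0.36, edgeR adjusted p = 0.886), or 0.08 without WT replicate 2. Nr0b2 (NCBI gene 23957, chromosome 4, 133553376 to 133556686), the corepressor SHP, had 32, 35 and 25 reads in Pak4_KO, or 0.755, 0.741 and 0.50 CPM. It had 41, 92 and 24 reads in WT, or 1.03, 1.94 and 0.477 CPM. WT replicate 3 was below every Pak4_KO library and WT replicate 2 was above all others. The log2 fold change was -0.79 (SE 0.50, 95% interval -1.94 to 0.37, edgeR adjusted p = 0.763), with -0.17 without WT replicate 2 and -1.16 without WT replicate 3. The spread within WT exceeded that of 96.2% of tested genes.

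**Figure D2:**
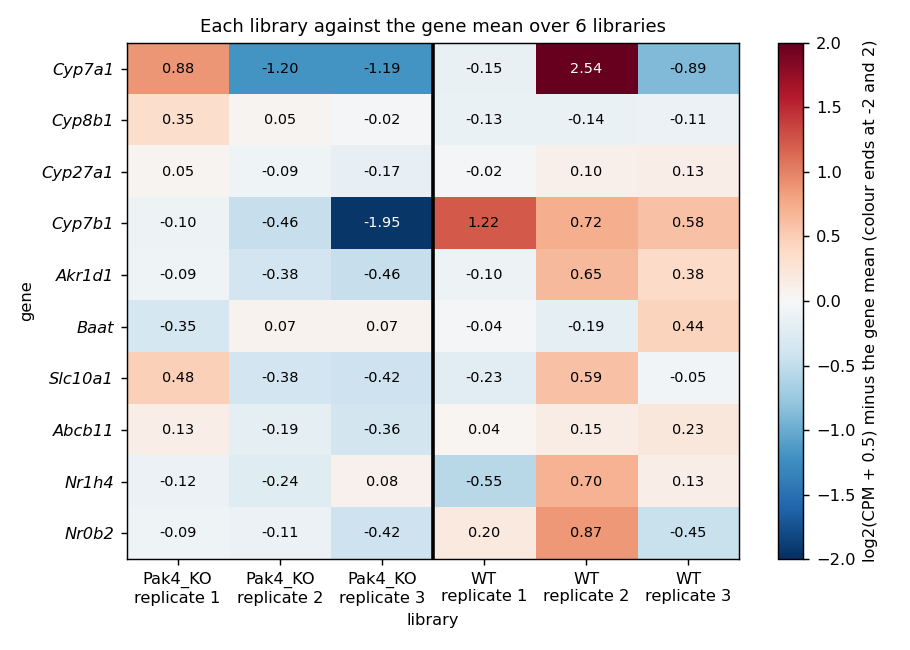
Each cell is a library's log2(CPM + 0.5) for a gene minus that gene's mean over the 6 libraries, with Pak4_KO libraries left of the line and WT libraries right of it. Cyp7b1 is below its mean in all 3 Pak4_KO libraries (down to -1.95) and above it in all 3 WT libraries, whereas Cyp7a1 is high in Pak4_KO replicate 1 (0.88) and WT replicate 2 (2.54) and below its mean in the other libraries.

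Several members shared their highest libraries across the genotypes. In 4 of the 10 members, Cyp7a1, Akr1d1, Slc10a1 and Nr0b2, replicate 1 was the highest Pak4_KO library and replicate 2 the highest WT library, and 18.7% of all tested genes showed that pair. Replicate 1 was the highest Pak4_KO library for 8 of the 10 members, against 37.0% of all tested genes, and replicate 2 the highest WT library for 5, against 37.6%. Nr0b2 entered the counts of 4 and 8 only narrowly. It had 0.755 CPM (32 reads) in Pak4_KO replicate 1 and 0.741 CPM (35 reads) in Pak4_KO replicate 2. The pattern was chosen after the values were seen, and gets no test. The same pair was shown by 4 of 17 tested synthesis genes, 7 of 17 transport genes, 9 of 19 control genes and 2 of 16 clock genes of the lists described here. On the second principal component over all tested genes, which held 25% of the variance, Pak4_KO replicate 1 scored 42.6 against -12.6 and -14.7 for the other Pak4_KO libraries, and WT replicate 2 scored 27.6 against 3.9 and -46.8 for the other WT libraries.

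Ratios between members within a library do not depend on how libraries are scaled. None of the 3 ratios tested differed between the groups beyond their spread, in a design of 3 against 3 whose smallest exact p is 0.1. The log2 TPM ratio of Cyp7a1 to Cyp8b1 was -6.93 ± 1.10 in Pak4_KO and -5.60 ± 1.89 in WT (SD, n = 3 each, exact permutation test, two-sided, p = 0.5, adjusted over the 3 ratios 0.8). That of Cyp7a1 to Cyp7b1 was -5.42 ± 1.00 in Pak4_KO and -6.03 ± 1.94 in WT (SD, n = 3 each, exact permutation p = 0.8, adjusted 0.8). The ratio of uptake to export, Slc10a1 to Abcb11, was -0.18 ± 0.27 in Pak4_KO and -0.26 ± 0.41 in WT (SD, n = 3 each, exact permutation p = 0.6, adjusted 0.8), a difference of 0.09 that turned to -0.07 without Pak4_KO replicate 1 and to -0.03 without WT replicate 1 or WT replicate 3. With 1 library left out, the difference ran from -2.07 (without WT replicate 3) to -0.26 (without WT replicate 2) for Cyp7a1 to Cyp8b1, around -1.33 in all libraries. It ran from 0.01 (without WT replicate 3) to 1.73 (without WT replicate 2) for Cyp7a1 to Cyp7b1, around 0.61 in all libraries. The TPM ratio of Cyp8b1 to Cyp7b1, chosen after the values were seen and given with no test, was 1.99, 2.08 and 5.58 in Pak4_KO and 0.57, 0.801 and 0.895 in WT. Cyp8b1 thus exceeded Cyp7b1 per length in every Pak4_KO library and was below it in every WT library.

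**Figure D3:**
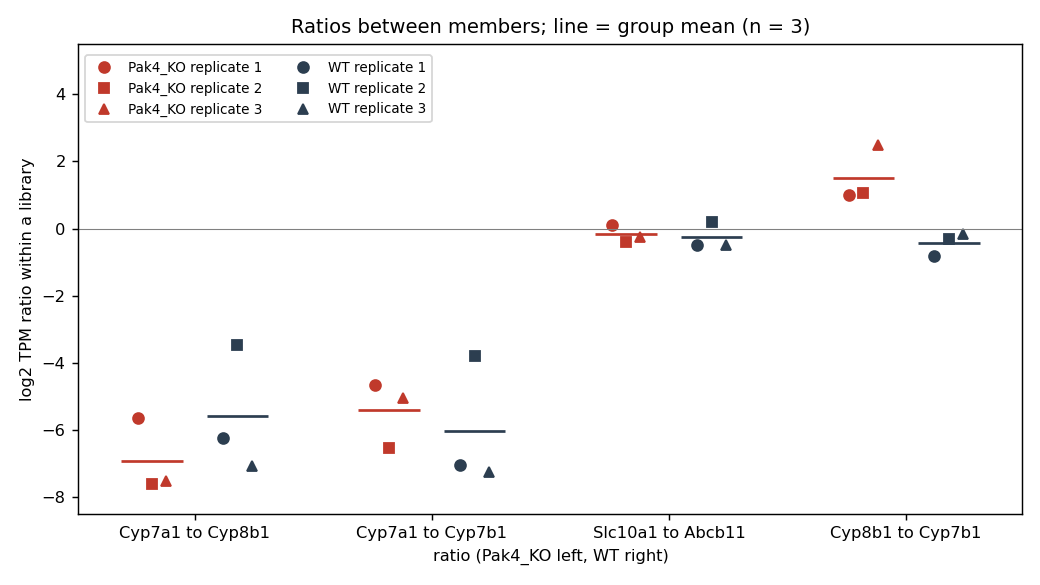
Log2 TPM ratios between pairs of members within each library, with each point a library, each line a group mean of 3, and Pak4_KO left of WT. The ratios with Cyp7a1 spread over several log2 units and overlap, whereas Cyp8b1 to Cyp7b1 lies from 0.99 to 2.48 in Pak4_KO and from -0.81 to -0.16 in WT.

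Further genes of the pathway were read from 3 lists, covering other enzymes of synthesis, other transporters and genes of control, with 60 genes in all. Of these, 53 were tested and 0 were called by edgeR, with 20 positive and 33 negative log2 fold changes and a median of -0.07. At an unadjusted p under 0.05 stood 11 of the 53, and 8.21% of all tested genes. The DESeq2 Wald test called 3, Cyp2a12, Cyp2c70 and Ephx1, and 2.06% of all tested genes, and limma-voom called 0 of the 53. The groups did not overlap for 12 of the 53, 6 higher and 6 lower in Pak4_KO, where 7.35% of all tested genes were higher and 6.06% lower without overlap. Slc51b and Vdr had too few reads to be tested, Slc51a, Fabp6, Fgf15 and Gpbar1 had no read, and Stard1 was not analysed here. Fgf15, the ileal signal to the liver, is known to be made in gut rather than in liver.

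Among the synthesis genes, 5 of 17 tested were positive and 12 negative (median log2 fold change -0.26). Cyp2c70, which makes the muricholic acids of rodents, had 788, 672 and 382 CPM in Pak4_KO and 1126, 1097 and 1237 CPM in WT. All Pak4_KO libraries were lower, with replicate 3 the lowest as for Cyp7b1 (log2 fold change -0.91, SE 0.25, edgeR adjusted p = 0.275; DESeq2 called it). Cyp2a12, which hydroxylates secondary bile acids in the mouse, had 404, 394 and 372 CPM in Pak4_KO and 499.6, 570.5 and 596 CPM in WT (log2 fold change -0.51, SE 0.13, edgeR adjusted p = 0.248; DESeq2 called it). Hsd3b7, the dehydrogenase that acts after the first hydroxylation, had 323, 235 and 206 CPM in Pak4_KO and 383, 345 and 341 CPM in WT, also without overlap (log2 fold change -0.49, edgeR adjusted p = 0.505). Slc27a5, the ligase that activates bile acids for Baat, had 788, 770.2 and 633.5 CPM in Pak4_KO and 814, 856 and 967.5 CPM in WT, again without overlap (log2 fold change -0.27, edgeR adjusted p = 0.717). Abcd3, which carries bile acid intermediates into the peroxisome, lay in the other direction, with 659, 627 and 745 CPM in Pak4_KO and 468, 529 and 509 CPM in WT and no overlap (log2 fold change 0.43, edgeR adjusted p = 0.374). Acot8, a peroxisomal thioesterase named after its values were seen, was the other gene higher without overlap, with 12.6, 13.6 and 16.9 CPM in Pak4_KO and 11.9, 11.2 and 10.4 CPM in WT (log2 fold change 0.36, SE 0.16, edgeR adjusted p = 0.62).

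Among the transport genes, 9 of 17 tested were positive and 8 negative (median log2 fold change 0.01). Ephx1, an epoxide hydrolase that has also been linked to bile acid uptake, had 262, 222 and 299 CPM in Pak4_KO and 183, 175 and 180 CPM in WT. Every Pak4_KO library was higher (log2 fold change 0.54, SE 0.14, edgeR adjusted p = 0.255; DESeq2 called it). Abcc3, an efflux pump of the blood-facing membrane, had 288, 208 and 329 CPM in Pak4_KO and 176, 167 and 209 CPM in WT, with overlap by 1 library of each group (log2 fold change 0.58, SE 0.19, edgeR adjusted p = 0.401). Slco1a4, an organic anion carrier, had 80.0, 100 and 133 CPM in Pak4_KO and 46.7, 67.6 and 80.7 CPM in WT (log2 fold change 0.68, SE 0.24, edgeR adjusted p = 0.473), also with overlap. Abcb4, the phospholipid floppase that protects the bile duct from bile salts, had 294, 242 and 306 CPM in Pak4_KO and 213, 225 and 234 CPM in WT, without overlap (log2 fold change 0.33, edgeR adjusted p = 0.578). Over all tested genes, 7.35% were higher and 6.06% lower in Pak4_KO without overlap. Of the 17 transport genes, 4 were higher (Abcb4, Slc10a2, Ephx1 and Fabp1) and 1 was lower in that way. The lower one, Abcg8, which with Abcg5 exports sterols into bile and is named after its values were seen, had 40.3, 32.4 and 28.8 CPM in Pak4_KO and 42.3, 71.4 and 41.8 CPM in WT (log2 fold change -0.62, SE 0.23, edgeR adjusted p = 0.517).

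Among the control genes, 6 of 19 tested were positive and 13 negative (median log2 fold change -0.11). Of the 19, 1 had groups without overlap, against 13.4% of all tested genes. That gene was Foxa2, a hepatocyte transcription factor, at 10.6, 11.7 and 11.9 CPM in Pak4_KO and 14.8, 15.1 and 13.6 CPM in WT (log2 fold change -0.35, SE 0.14, edgeR adjusted p = 0.542). Ppargc1a, a coactivator known to raise Cyp7a1 in fasting, had 46.2, 12.7 and 11.3 CPM in Pak4_KO and 9.24, 16.0 and 4.29 CPM in WT (log2 fold change 1.25, SE 0.62, edgeR adjusted p = 0.664). Its highest library of each genotype was the same one as for Cyp7a1. That held for 9 of the 19 control genes and 18.7% of all tested genes, and a link to Cyp7a1 was not tested. Nr1i2, the xenobiotic and bile acid receptor PXR, had 114, 93.2 and 97.5 CPM in Pak4_KO and 70.5, 101 and 68.7 CPM in WT, with overlap (log2 fold change 0.34, edgeR adjusted p = 0.686). Fgfr4, the receptor for FGF15, had 8.90, 6.69 and 6.90 CPM in Pak4_KO and 10.1, 10.3 and 7.04 CPM in WT (log2 fold change -0.29, edgeR adjusted p = 0.809). Its co-receptor Klb had 51.6, 30.8 and 21.0 CPM in Pak4_KO and 39.3, 60.7 and 30.1 CPM in WT (log2 fold change -0.33, edgeR adjusted p = 0.891).

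**Figure D4:**
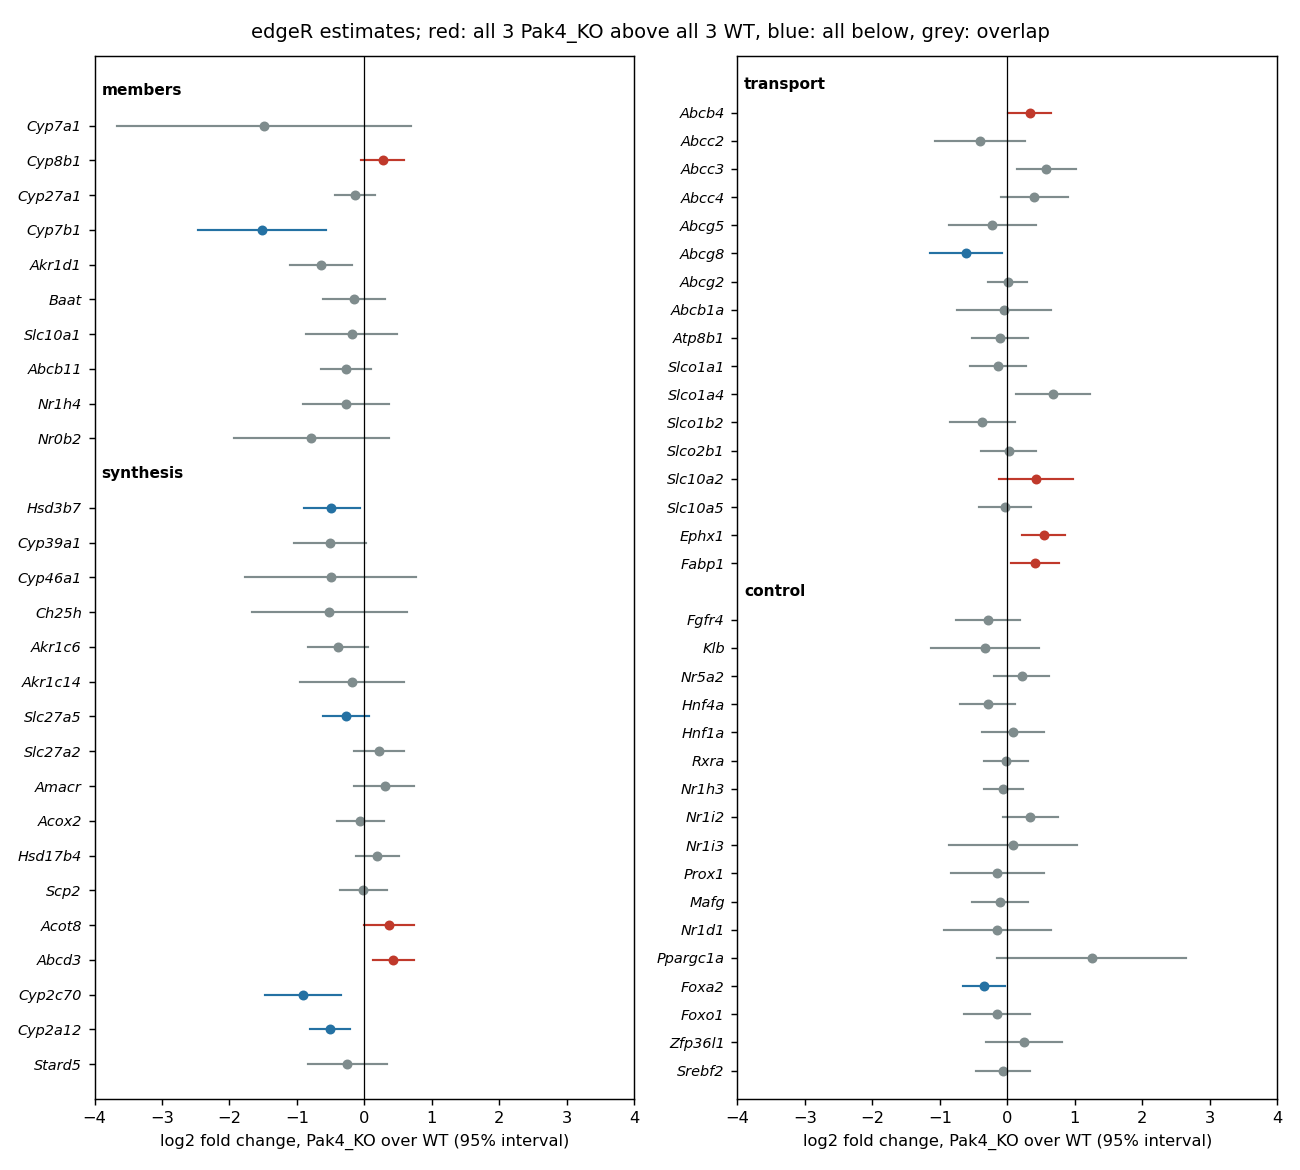
Log2 fold change of Pak4_KO over WT with its 95% interval from edgeR for the 10 members and tested genes of the 3 pathway lists, coloured by whether the libraries of the groups overlap. Among the members the interval of Cyp7a1 is the widest (-3.67 to 0.69), that of Cyp27a1 is among the narrowest, and those of Cyp7b1 and Akr1d1 lie wholly below 0 before adjustment.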

How the data were processed

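Liver RNA of 3 Pak4_KO and 3 WT libraries was sequenced from 1 µg of total RNA with a stranded poly(A)-selecting kit, per the labels' protocols. Build mm10, StringTie 2.1.3b, HISAT2 2.1.0 with Bowtie2 2.3.4.1, and FastQC 0.11.7 after bcl2fastq 2.20.0 are listed in the submitters' processing notes. Nothing on the strand setting or annotation release is given in the sources used here. Raw whole-number read counts per gene come from the authors' table, per the file headers. It also has deposited TPM, used for levels, ratios and alternatives, and deposited FPKM, used in 1 alternative for the ratios. More genes had 2 reads than 1 read in every library, and pairs may have been counted as 2 reads.

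The fit used edgeR 4.0.16 under R 4.3.3 (filterByExpr, TMM factors, glmQLFit and glmQLFTest, two-sided, Benjamini-Hochberg over 16197 genes, called under 0.05). SE is the absolute log2 fold change over the square root of F, and 95% intervals use the fitted degrees of freedom. Spread within a group is the SD of log2(CPM + 0.5). Alternatives were DESeq2 1.42.0 size factors and Wald test, library size only, 2 other filters, limma 3.58.1 as voom or as trend on log2 TPM with 1 or 0.1 added, a block for replicate number, and leaving out each library. The fit was tested on simulated data. Coordinates and promoters are from RefSeq GRCm38.p6, the build also called mm10; 45679 of 45777 gene IDs matched. The members and lists were chosen with earlier results of these data known. Named with values are Pak4, all members, and from each pathway list every called gene or else the 3 with the smallest p, plus Fgfr4, Klb, Abcb4, Hsd3b7, Slc27a5, Dbp, Per1 and Arntl. Some genes of the lists are counted but not reported here by name.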

Additional observations from a re-analysis of the deposited data

How the results depend on the processing

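The members kept their direction and their side of the threshold in 145 of 150 values over 15 alternatives. The exceptions were the Cyp7b1 call by the DESeq2 Wald test (log2 fold change -1.52) and 4 signs that turned when 1 library was left out. Leaving out each library in turn gave log2 fold changes from -2.65 to 0.35 for Cyp7a1, from -0.28 to 0.05 for Baat, from -0.55 to 0.09 for Slc10a1 and from -0.54 to 0.08 for Nr1h4; WT replicate 2 turned the sign of Cyp7a1, Slc10a1 and Nr1h4, and WT replicate 3 that of Baat. The Slc10a1 to Abcb11 ratio (0.09 on the log2 scale) ran from -0.07 to 0.32 in the same way, turning without Pak4_KO replicate 1, WT replicate 1 or WT replicate 3. The DESeq2 Wald test called 1 member, 3 pathway genes and 334 genes in all, against 0, 0 and 76 by edgeR, and the cause was not tested. With at least 10 reads in every library, 44 genes were called among fewer tested. Leaving out 1 library gave 37 to 81 called genes, with 38 without Pak4_KO replicate 2, 37 without Pak4_KO replicate 3, 44 without WT replicate 1 and 46 without WT replicate 2, and 0 members and 0 pathway genes called in each.

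With the replicate number as a block, 0 members, 0 pathway genes and 73 genes were called. The differences of the ratios (-1.33, 0.61 and 0.09 on the log2 scale) cannot move under this block by its construction. Same-numbered libraries correlated in their deviations from the group means at 0.0669, -0.2013 and 0.1469, not each over 0.1. Libraries did not all correlate best with their own number. With so few libraries, whose deviations cancel within a group, these values cannot show whether same-numbered libraries shared a litter or day. The labels do not say, and the main fit used genotype alone. Nr0b2 had 24 to 92 reads per library, so its counting error is the largest of the members, and the other members had at least 145 reads in every library.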
